A study of Mus musculus with 2 samples.

Results

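The detoxification enzymes of the mouse colon were taken as all measured genes of 7 enzyme families, chosen by symbol: the cytochromes P450 of families 1 to 4 (Cyp), the UDP-glucuronosyltransferases (Ugt), the soluble glutathione S-transferases (Gst), the microsomal glutathione S-transferases (Mgst), the sulfotransferases (Sult), the aldehyde dehydrogenases (Aldh) and the carboxylesterases (Ces). The rule found 99 of the 17044 genes measured: 33 Cyp, 7 Ugt, 20 Gst, 3 Mgst, 6 Sult, 17 Aldh and 13 Ces genes. The rule itself uses symbols and no measured value. The cells were colon epithelium of wild-type C57BL/6 mice at 2 weeks after irradiation, in 1 group with 2 single-cell libraries, and the title of the study speaks of a radiation-injured rectum regenerated by transplanted colonoids, which are organoids grown from colon crypts. Which cells descend from a graft is not stated in the labels, and unirradiated or untransplanted colon was not analysed here. The deposited values are the authors' means per cluster of cells, for 12 clusters with the numbers 0 to 11, and their unit is unique molecular identifiers (UMIs) per 10000 UMIs of a cell, written per 10000 from here on. Since no column is tied to a library, both were treated as 1 pool, there are no replicates, and nothing could be tested. Clusters are compared by size alone, and the 95% intervals given in brackets are exact Poisson ones for counting error.

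Detoxification is usually told in stages. Cytochromes P450, carboxylesterases and aldehyde dehydrogenases first oxidise or hydrolyse a foreign compound, a lipid or an aldehyde. Transferases then couple the product to glucuronic acid, glutathione or sulfate, and membrane pumps carry the conjugate out of the cell. In the colon these enzymes meet bacterial products, bile acids, drugs and dietary compounds, and several also work on the body's own substrates, such as arachidonic acid, retinal, steroids and leukotrienes. Not every gene that the symbols take in is a detoxification enzyme: Gstz1 acts in tyrosine breakdown, Aldh18a1 in proline synthesis, Aldh7a1 in lysine breakdown and Aldh1l1 in folate metabolism.

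Promoter sequences of members on which the results below turn are shown first. Of the Cyp2c genes of chromosome 19, Cyp2c55, Cyp2c65 and Cyp2c69 were highest in cluster 9 and Cyp2c68 in cluster 3. The low genes Cyp2c67, Cyp2c40 and Cyp2c44 were highest in clusters 3, 11 and 8 and are not shown. Gsta3 and Mgst1 stood out in clusters 7 and 3. Each line gives the 250 bases before the transcription start from RefSeq (GRCm38.p6, the build mm10), 5′ to 3′ on the strand of the gene. Capitals mark matches, on either strand, to a core of the xenobiotic response element (GCGTG), the antioxidant response element (TGACNNNGC), a site of HNF4 (CAAAGTCCA) or a site of CDX (TTTATNG).
Cyp2c55, chr19:39006769-39007018, plus strand: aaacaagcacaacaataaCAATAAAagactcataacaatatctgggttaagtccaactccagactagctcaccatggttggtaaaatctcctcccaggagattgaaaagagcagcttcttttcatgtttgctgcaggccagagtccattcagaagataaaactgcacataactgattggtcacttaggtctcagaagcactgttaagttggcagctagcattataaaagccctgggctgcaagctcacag
Cyp2c65, chr19:39060756-39061005, plus strand: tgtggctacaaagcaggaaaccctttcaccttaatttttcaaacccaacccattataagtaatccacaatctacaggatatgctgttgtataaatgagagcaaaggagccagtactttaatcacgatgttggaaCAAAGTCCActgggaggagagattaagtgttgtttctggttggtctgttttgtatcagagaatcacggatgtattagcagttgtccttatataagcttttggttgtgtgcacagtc
Cyp2c69, chr19:39886770-39887019, minus strand: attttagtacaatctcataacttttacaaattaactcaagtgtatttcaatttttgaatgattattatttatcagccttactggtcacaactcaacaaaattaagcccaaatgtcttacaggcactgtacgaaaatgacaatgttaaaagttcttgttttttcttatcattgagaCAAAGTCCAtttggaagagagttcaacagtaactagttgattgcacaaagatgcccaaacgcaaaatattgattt
Cyp2c68, chr19:39741102-39741351, minus strand: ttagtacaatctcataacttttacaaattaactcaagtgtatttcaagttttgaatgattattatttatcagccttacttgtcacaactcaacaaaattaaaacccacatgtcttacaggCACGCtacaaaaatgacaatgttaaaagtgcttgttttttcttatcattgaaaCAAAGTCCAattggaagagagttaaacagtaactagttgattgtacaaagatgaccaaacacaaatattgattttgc
Gsta3, chr1:21240335-21240584, plus strand: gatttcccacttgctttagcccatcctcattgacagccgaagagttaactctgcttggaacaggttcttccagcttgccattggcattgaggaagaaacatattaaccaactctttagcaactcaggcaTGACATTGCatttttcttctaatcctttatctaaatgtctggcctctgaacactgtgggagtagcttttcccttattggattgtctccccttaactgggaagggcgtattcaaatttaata
Mgst1, chr6:138140277-138140526, plus strand: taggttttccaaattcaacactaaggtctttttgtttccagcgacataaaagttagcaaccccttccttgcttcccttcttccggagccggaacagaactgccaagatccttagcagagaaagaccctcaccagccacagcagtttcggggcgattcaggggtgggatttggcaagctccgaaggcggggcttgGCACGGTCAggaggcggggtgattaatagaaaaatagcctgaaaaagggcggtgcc
The capitals are a CDX match in Cyp2c55 and an HNF4 match in Cyp2c65 and Cyp2c69. In Cyp2c68 they are a xenobiotic response element followed by an HNF4 match, and in Gsta3 and Mgst1 an antioxidant response element. Only matches that lie wholly within the 250 bases are in capitals. Cyp2c65 also has an antioxidant response element match that begins 8 bases before the start and runs past the printed bases. Mgst1 has 2 starts in the table, and 1 is shown.

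Of the 99 members, 80 had a promoter in the RefSeq table, with 98 promoters of 250 bases before to 50 bases after the start. The HNF4 letters occurred in 6 of these 98 promoters (6.12%), against 0.475% of all 32851 promoters. The 6 belonged to Cyp2c40, Cyp2c65, Cyp2c67, Cyp2c68, Cyp2c69 and Sult1b1, and the 5 Cyp2c genes are neighbouring copies that share sequence. In Cyp2c65 the match began 116 bases before the start, in Cyp2c68 77 bases and in Cyp2c69 75 bases before it. The other 3 motifs were no more frequent among the members: GCGTG was in 24.5% of their promoters against 32.4% of all, TGACNNNGC in 9.18% against 12.4%, and TTTATNG in 8.16% against 10.9%. The CDX and HNF4 letters were added after the levels had been seen. A match is a description of these letters and not of a bound site, and no overlap between motifs was removed.

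The labels' cell type was checked against markers. Epcam, an epithelial surface protein, lay between 14.9 and 37.6 per 10000 in 10 clusters, and at 3.83 and 2.89 per 10000 in clusters 5 and 10, where the leukocyte gene Ptprc was at 3.69 and 1.78 per 10000. By markers, cluster 0 was goblet-like, cluster 5 neutrophil-like, cluster 7 proliferating-like, clusters 8 and 9 absorptive colonocyte-like and cluster 11 enteroendocrine-like. The other 6 clusters are called by number. Among them was cluster 4, which had the highest level of 6 of 8 injury or regenerative markers. Of the 20 absorptive colonocyte markers, 8 were 2-fold or more above the mean of the rest in cluster 4, as in cluster 9, against 15 in cluster 8, so cluster 4 also carried absorptive markers. The low values of the averages gave 3082 cells, with 482 in cluster 0 at the most and only 31 and 19 in clusters 10 and 11. UMI totals were identified for 2286 of the cells (74.2%), with medians of 1436 and 2505 UMIs in clusters 5 and 6 and between 6559 and 19522 UMIs in the others. The clusters were drawn by the authors from the same expression values, so a gene that distinguishes a cluster describes it and is no independent evidence.

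By their summed level the members were highest in the absorptive colonocyte-like clusters. Summed over all 99 genes, they took 125.7 per 10000 UMIs in cluster 8 (95% interval 123.4 to 128.0) and 115.4 per 10000 in cluster 9 (113.5 to 117.4). Mgst3 alone gave 33.8% of the sum in cluster 8 and 23.4% in cluster 9, and without it the order turned, with 83.2 per 10000 in cluster 8 and 88.4 in cluster 9. Cluster 3 followed with 98.8 per 10000, ahead of cluster 4, which also carried absorptive markers, with 73.1. Clusters 1 and 2 had 66.5 and 59.0, the proliferating-like cluster 7 had 49.4 and the goblet-like cluster 0 had 33.6. The lowest sums were 17.3 in cluster 5 and 12.3 in cluster 10, the leukocyte clusters. The median member lay at -0.07 in log2 from the mean of the others in cluster 8 and at 0.28 in cluster 9. Over all genes these medians were -0.11 and -0.06. With no minimum level, 19 members were 2-fold or more above that mean in cluster 8 and 11 below (3.7% and 9.41% of all genes). In cluster 9 it was 21 above and 4 below (1.21% and 5.09%). A level of 1 per 10000 was reached somewhere by 38 members: 11 Cyp, 1 Ugt, 10 Gst, 3 Mgst, 5 Sult, 5 Aldh and 3 Ces genes. Of these 38, 13 had their highest level in cluster 8 and 9 in cluster 9. The matching shares over all genes at that level are not given here, so these counts describe the members alone. The other 61 members stayed below 1 per 10000 in every cluster, 26 of them below 0.1, and none was at 0 in all 12. The plot of the 38 members by cluster shows where each was high.

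**Figure D1:**
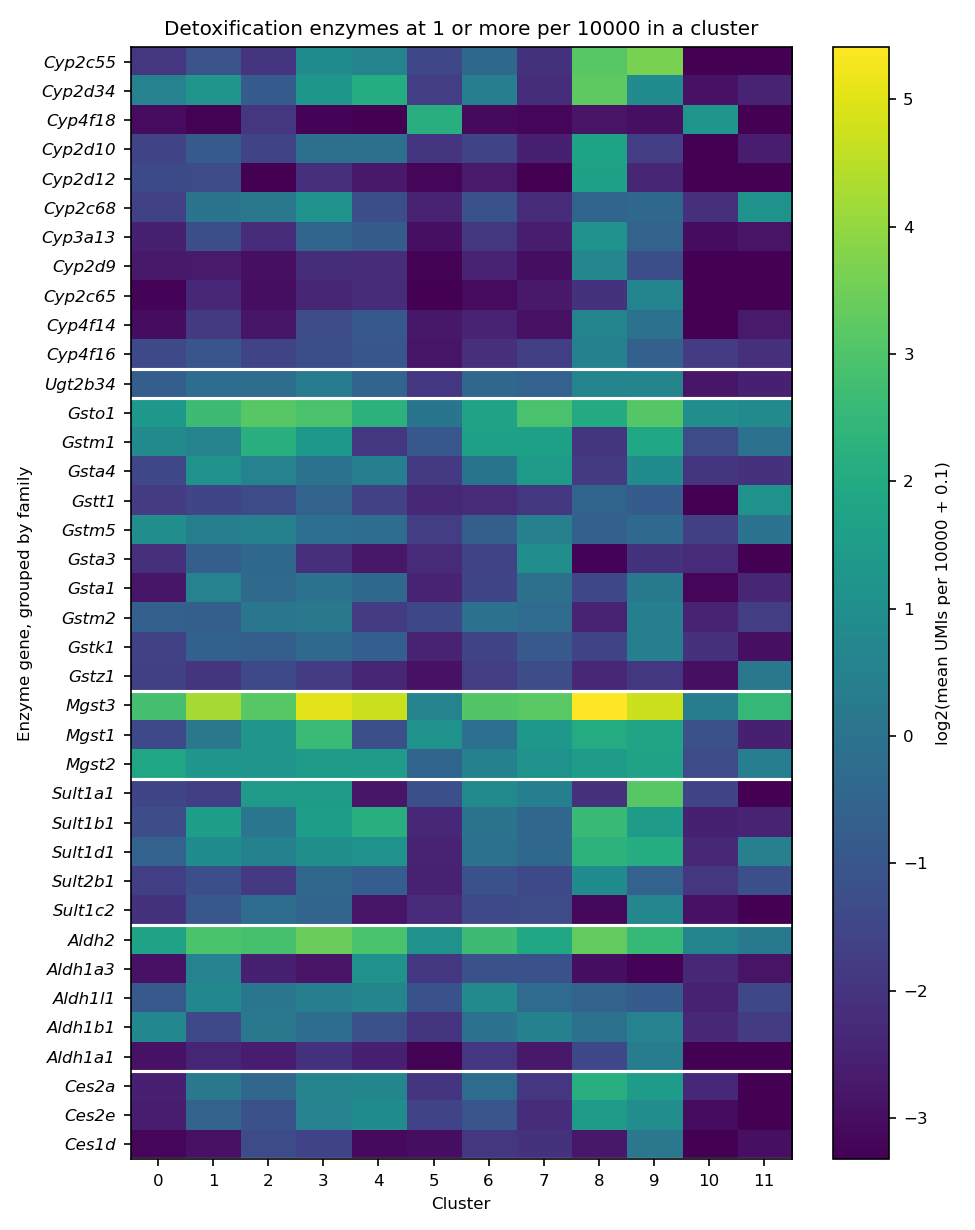
Levels of the 38 detoxification genes that reached 1 per 10000 in at least 1 cluster, as log2(mean UMIs per 10000 + 0.1) by colour, with genes as rows grouped by family and the 12 clusters as columns. Most Cyp, Sult and Ces genes were brightest in columns 8 and 9, Cyp4f18 in columns 5 and 10, and several Gst genes in columns 2, 7 and 9 but not 8.

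A gene was called higher in a cluster where it had at least 1 per 10000 there and at least 2-fold the mean of the other clusters, with 0.1 per 10000 added to each value, which understates the fold of low genes. In cluster 8, 16 members were called, where 2.02% of all genes were. In cluster 9 it was 14 members, where 0.669% of all genes were called. In the other clusters the counts were small: 2 in cluster 0 (1.11% of all genes), 3 in cluster 1 (0.164%), 1 in cluster 2 (0.246%), 4 in cluster 3 (0.546%), 4 in cluster 4 (1.84%), 1 in cluster 5 (2.63%), 1 in cluster 6 (0.681%), 2 in cluster 7 (1.23%), 1 in cluster 10 (1.92%) and 3 in cluster 11 (2.65%). Part of the contrast with all genes goes with level, since 19.2% of all genes reached 1 per 10000 anywhere. Among genes with a mean of at least 0.5 per 10000 over the clusters, the count was 10 of 24 members in cluster 8 against 10.2% of such genes, and 9 of 24 in cluster 9 against 3.42%.

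A stricter rule asked for 2-fold over the highest other cluster. It was met by 14 of the 99 members, against 4.5% of all genes. Cluster 8 was led by Cyp3a13, Sult2b1, Cyp2d9, Cyp2d10, Cyp2d12, Cyp2d34 and Cyp4f16, and cluster 9 by Cyp2c65, Sult1a1, Ces1d and Aldh1a1. Gsta3 led cluster 7, and Gstt1 and Gstz1 led cluster 11. Among genes with a mean of at least 0.5 per 10000, 3 of 24 members led a cluster against 11.5% of such genes, a share near the background.

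**Figure D2:**
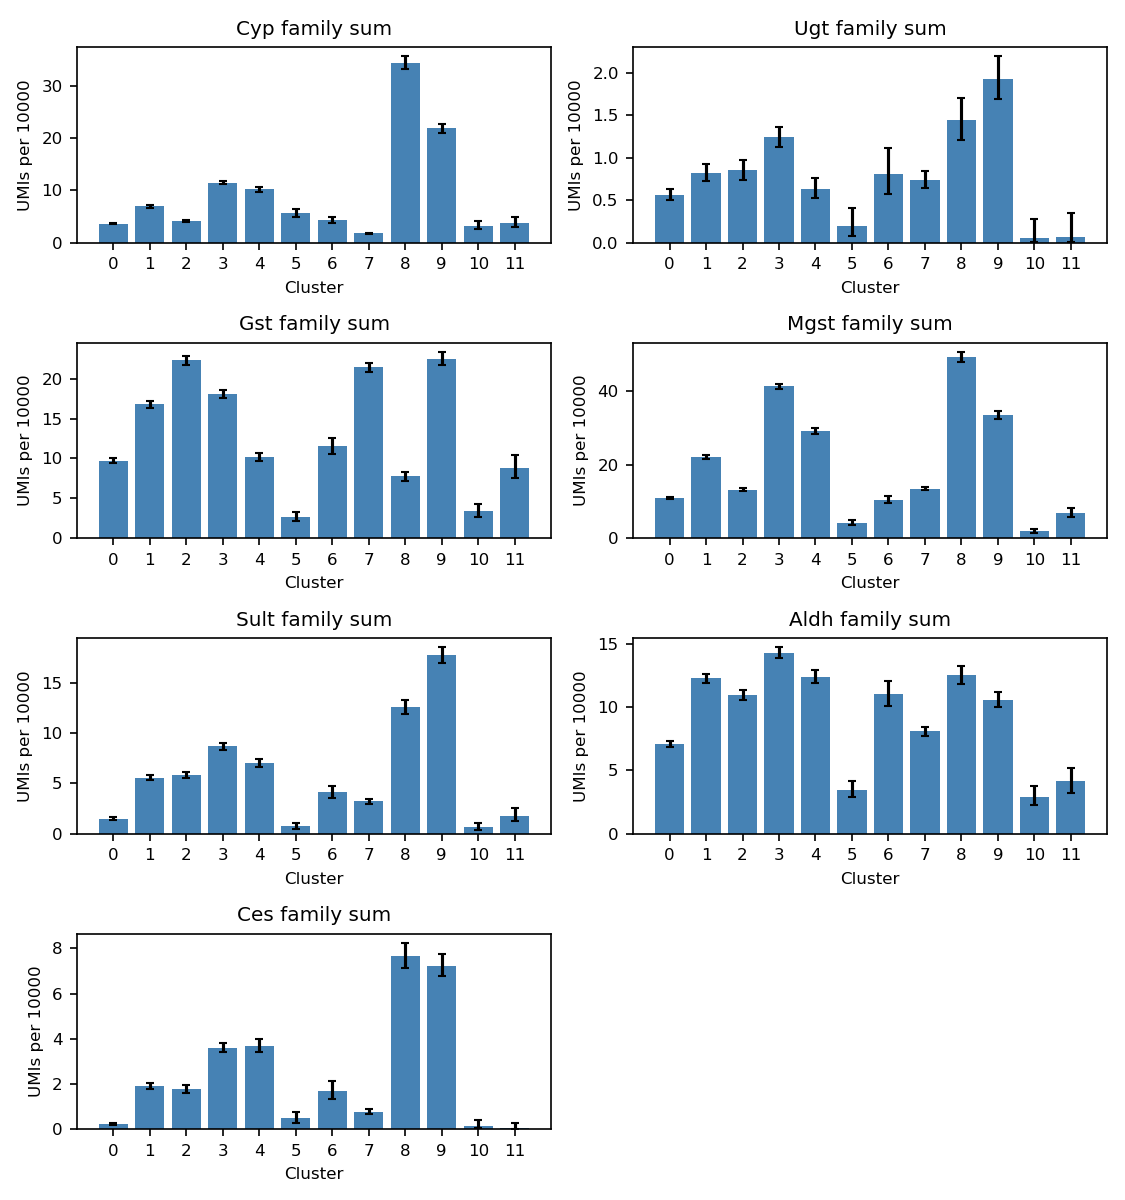
Sum of the members of each family in UMIs per 10000 in the 12 clusters, 1 panel per family, with exact Poisson 95% intervals as bars (counting error only). The Cyp sum was highest in cluster 8 and lowest in cluster 7, while the Gst sum was high in clusters 2, 7 and 9 and low in cluster 8.

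Cytochromes P450 made up 34.4 per 10000 in cluster 8 (33.2 to 35.6) and 21.9 per 10000 in cluster 9 (21.02 to 22.7), against 1.75 per 10000 in cluster 7 (1.60 to 1.91). Cyp2c55, which in mice oxidises arachidonic and linoleic acid, lies at chr19:39007019-39042693 on the plus strand. It had 12.5 per 10000 in cluster 9 (11.9 to 13.2) and 8.81 in cluster 8 (8.22 to 9.44), with a median of 0.320 over the 12 clusters. Below these came 1.74 in cluster 3, 1.40 in cluster 4 and 0.664 in cluster 6, each interval clear of the next. From cluster 1 down, at 0.376, through clusters 5, 0 and 2 to cluster 7, at 0.141, each interval overlapped its neighbour in the order. No UMI was found in clusters 10 and 11, which allows up to 0.139 and 0.174 per 10000. In cluster 9 Cyp2c55 was 1.42-fold above cluster 8, and both were far above cluster 7, by 37.0-fold in cluster 8 and by 52.4-fold in cluster 9.

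The members most like Cyp2c55 over the 12 clusters, by Pearson's r of log2(value + 0.1), were Cyp4f14 with r = 0.94, Ces2e with 0.92, Ces2a with 0.91 and Cyp3a13 with 0.90. These r values describe 12 clusters that share both libraries and differ in depth. Cyp4f14, which adds hydroxyl groups to leukotriene B4 and other lipids, had 1.42 per 10000 in cluster 8, 0.881 in cluster 9 and 0.430 in cluster 4, with a median of 0.0657. Cyp3a13, a drug- and steroid-oxidising enzyme, had 2.10 per 10000 in cluster 8 (1.82 to 2.42), against 0.609 in the next cluster, 3, and its median was 0.141.

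The Cyp2c neighbours of Cyp2c55 were like it to different degrees, with r over the 12 clusters of 0.82 for Cyp2c65, 0.80 for Cyp2c69 and 0.20 for Cyp2c68. Cyp2c65 (chr19:39061015-39093944), which also oxidises arachidonic acid, had 1.44 per 10000 in cluster 9 (1.24 to 1.68), against 0.145 in cluster 8, its next highest, and 0 in clusters 5, 10 and 11. That was 6.30-fold over the next cluster. Cyp2c69 (chr19:39842814-39886799) was highest in cluster 9 at 0.506, followed by cluster 3 at 0.408, and had 0.164 in cluster 8. Cyp2c68 (chr19:39688834-39741054) had 2.14 per 10000 in cluster 3 (1.98 to 2.301) and 2.10 in cluster 11 (1.48 to 2.91), then 1.03 in cluster 2 and 0.915 in cluster 1, and 0.605 and 0.663 in clusters 8 and 9. The closest copies can share reads: of the 90-base windows of its transcripts, 38.1% of Cyp2c69, 22.4% of Cyp2c68 and 8.86% of Cyp2c65 occurred in another gene, against 0% of Cyp2c55. The levels of Cyp2c68 and Cyp2c69 are therefore uncertain, by an amount that these shares do not measure. Cyp2c40, Cyp2c44 and Cyp2c67 stayed below 0.1 per 10000 in all clusters.

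In a second block of neighbours, the Cyp2d genes of chromosome 15, relatives of the human drug-metabolising CYP2D6, most genes were highest in cluster 8. Cyp2d34 (chr15:82615965-82620946) had 9.39 per 10000 in cluster 8 (8.78 to 10.04), 4.17 in cluster 4, 1.74 in cluster 9 and 0.122 in cluster 7, with a median of 1.29. Cyp2d10 had 3.23 in cluster 8, 0.839 in cluster 3 and 0.202 in cluster 9. Cyp2d12 (chr15:82555072-82560403) had 3.102 in cluster 8 and 0.0938 in cluster 9. Cyp2d12 was 7.78-fold above cluster 1, its next highest at 0.312, and no UMI of it was found in cluster 2. Cyp2d9 had 1.55 in cluster 8, against 0.325 in cluster 9. Cyp2d22 was also highest in cluster 8, at 0.4996, while Cyp2d26 was at 0.0272 there and at 0.224 in cluster 11, on about 4 UMIs. Between copies, 15.3% of the windows of Cyp2d10, 9.60% of Cyp2d9 and 1.98% of Cyp2d12 were shared. The levels of Cyp2d10 and Cyp2d9 are therefore uncertain, by an amount that these shares do not measure.

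**Figure D3:**
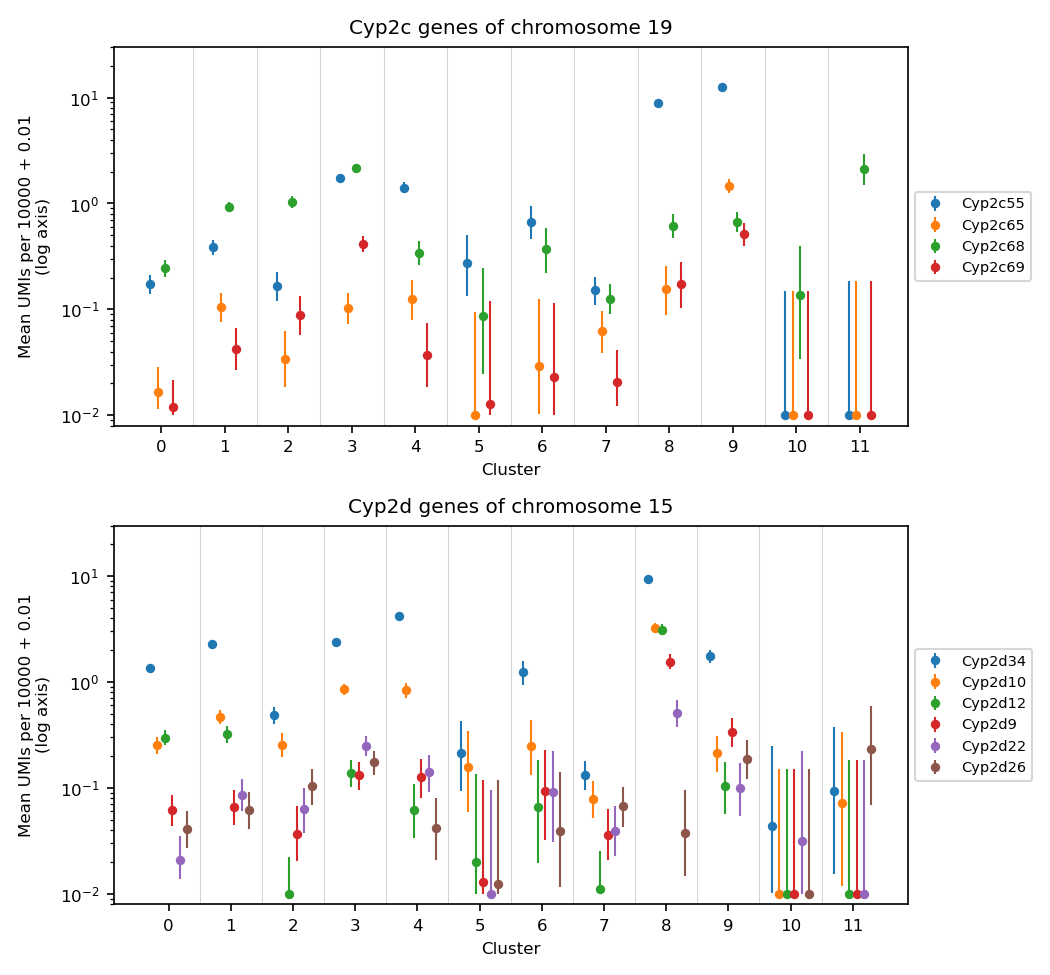
Levels of 4 Cyp2c genes (upper panel) and 6 Cyp2d genes (lower panel) in the 12 clusters, as mean UMIs per 10000 + 0.01 on a log axis, with exact Poisson 95% intervals as bars (counting error only). Cyp2c55 was high in clusters 8 and 9, Cyp2c65 in cluster 9, Cyp2c68 in clusters 3 and 11, and 5 of the 6 Cyp2d genes peaked in cluster 8.

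Another Cyp gene marked leukocytes. Cyp4f18, which in mouse neutrophils oxidises leukotriene B4, had 4.33 per 10000 in the neutrophil-like cluster 5 (3.67 to 5.07) and 2.23 in cluster 10 (1.65 to 2.96), while its median was 0.0188 and no UMI was found in clusters 4 and 11. It made up 77.4% of the Cyp sum in cluster 5. The remaining Cyp gene above 1 per 10000, Cyp4f16, had 1.33 in cluster 8, against 0.547 in cluster 9. Of its windows, 7.44% occurred in another gene. Cyp2s1, just under the threshold, had 0.998 in cluster 8 and 0.732 in cluster 9.

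Carboxylesterases, which split esters of drugs and lipids, lay in 2 genomic groups whose highest members had different patterns. In the Ces2 block of chromosome 8, Ces2a (chr8:104734003-104741634) had 4.31 per 10000 in cluster 8 (3.90 to 4.75), 2.76 in cluster 9 (2.47 to 3.08) and 0.161 in cluster 7. Ces2e had 2.69 in cluster 8, 1.83 in cluster 9 and 1.79 in cluster 4. Of the low members, Ces2b and Ces2c were highest in cluster 8, at 0.163 and 0.105. The others were not. Ces2g was highest in cluster 3 at 0.356, with 0.313 in cluster 8 and 0.315 in cluster 9. Ces2f was highest in cluster 4 at 0.0371 with no UMI in cluster 8, and Ces2d-ps in cluster 9 at 0.00895. Of the windows of Ces2a, Ces2c and Ces2d-ps, 9.35%, 16.4% and 60.1% occurred in another gene, so their levels are uncertain. In the Ces1 block of the same chromosome, Ces1d (chr8:93166068-93197838), a hydrolase of triacylglycerol and drugs, had 0.0479 per 10000 in cluster 8 and 1.003 in cluster 9 (0.831 to 1.20). Ces1f had 0.0224 in cluster 8 and 0.799 in cluster 9, Ces1e 0.00953 and 0.176, and Ces1g had no UMI in cluster 8 and 0.255 in cluster 9. All 4 of these Ces1 genes were highest in cluster 9, while Ces1b and Ces1c had no UMI in either cluster. The sums of the 13 Ces genes hid this: they were 7.66 per 10000 in cluster 8 and 7.24 in cluster 9.

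**Figure D4:**
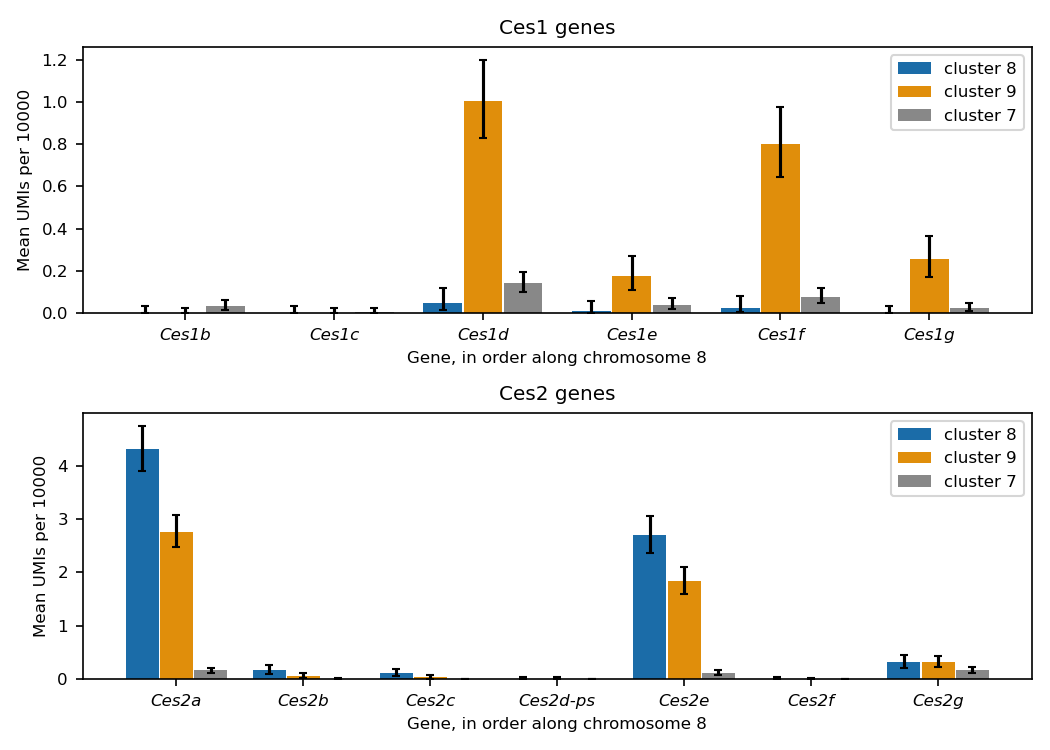
Mean UMIs per 10000 of the Ces1 genes (upper panel) and Ces2 genes (lower panel) in clusters 8, 9 and 7, in their order along chromosome 8, with exact Poisson 95% intervals as bars (counting error only). Ces1d, Ces1e, Ces1f and Ces1g were higher in cluster 9 than in cluster 8, and Ces2a and Ces2e were higher in cluster 8.

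Aldehyde dehydrogenases were spread more evenly. Their sum lay between 7.06 and 14.3 per 10000 in clusters 0 to 4 and 6 to 9, with the highest value in cluster 3. Its largest member in each of these clusters was Aldh2, the mitochondrial enzyme that oxidises acetaldehyde, with between 44.4% of the sum in cluster 0 and 78.2% in cluster 8. Aldh2 had 10.6 per 10000 in cluster 3 (10.3 to 10.99) and 9.81 in cluster 8 (9.18 to 10.5), intervals that overlapped, and 1.06 in cluster 11. The enzymes that make retinoic acid from retinal lay apart from each other. Aldh1a3 (chr7:66390890-66427517) had 2.12 per 10000 in cluster 4 (1.91 to 2.34) and 1.35 in cluster 1 (1.23 to 1.47), with a median of 0.0855, and only 0.0260 in cluster 8 and 0.00532 in cluster 9. Aldh1a1 (chr19:20492715-20643465) had 0.271 in cluster 8 and 1.21 in cluster 9 (1.02 to 1.43), with 0.0687 in cluster 4. Aldh1l1, of folate metabolism, was highest in cluster 6 at 1.65, with 1.57 in cluster 1 and 1.49 in cluster 4, and the intervals of clusters 6 and 1 overlapped. Aldh1b1, a mitochondrial relative of Aldh2, had 1.57 in cluster 0, 1.37 in cluster 9 and 1.33 in cluster 7. All 12 other Aldh genes stayed at 0.652 or less.

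Soluble glutathione S-transferases had their lowest sum among the epithelial clusters 0 to 4 and 6 to 9 in cluster 8. Their sum was 7.75 per 10000 in cluster 8 (7.20 to 8.34), against 22.5 in cluster 9 (21.7 to 23.4). Clusters 2 and 7 had 22.3 and 21.4. Gsto1, the omega-class enzyme that reduces dehydroascorbate, had 8.69 per 10000 in cluster 2, 8.57 in cluster 9, 7.37 in clusters 3 and 7 alike and 3.92 in cluster 8. Gstm1 (chr3:108012255-108017973), of the mu class, ranged from 0.148 in cluster 8 to 4.52 in cluster 2 (4.25 to 4.80), with a median of 1.56. In clusters 9, 6 and 7 it had 3.70, 3.11 and 3.099, and in cluster 4 0.170. Gstm2 and Gstm3 were at 0.0811 and 0.0302 in cluster 8 and highest in cluster 9, at 1.26 and 0.820. Of the windows of Gstm3 and Gstm1, 16.9% and 8.46% occurred in another gene, so their levels are uncertain. Gstm5 differed, with 1.86 in the goblet-like cluster 0, against 1.34 in cluster 2.

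The alpha-class genes Gsta1, Gsta3 and Gsta4 were low in cluster 8, and Gsta3 was low in cluster 9 too. Gsta3 (chr1:21240589-21265661), which conjugates aflatoxin epoxide in mice, had 1.83 per 10000 in the proliferating-like cluster 7 (1.68 to 2.00), 2.55-fold over cluster 2 at 0.658, and 0.00589 in cluster 8 and 0.141 in cluster 9. Gsta4, which conjugates the lipid peroxidation product 4-hydroxynonenal, had 2.61 in cluster 7, 2.08 in cluster 1, 1.76 in cluster 9 and 0.178 in cluster 8. Gsta1 had 1.36 in cluster 1 and 1.07 in cluster 9, but 82.0% of its windows occurred in another gene, so its level is uncertain. Gstk1, the kappa-class enzyme, had 1.26 in cluster 9, against 0.698 in cluster 3. In the enteroendocrine-like cluster 11, of 19 cells, Gstt1 had 2.06 per 10000 (1.44 to 2.86), 3.07-fold over cluster 8 at 0.606, and Gstz1 had 1.03 (0.612 to 1.64), 2.71-fold over cluster 7 at 0.318. These 2 values rest on about 36 and 18 UMIs.

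Microsomal glutathione S-transferases, membrane proteins unrelated in sequence to the soluble ones, ran the other way from them in cluster 8, where their sum was highest at 49.3 per 10000. This rested on Mgst3, without which the sum was 6.82 in cluster 8 and highest in cluster 3, at 8.85. Mgst3 (chr1:167371966-167393841) had 42.5 per 10000 in cluster 8 (41.2 to 43.8), 32.5 in cluster 3, 27.02 in cluster 9 and 26.02 in cluster 4, with a median of 8.82. Even in the leukocyte clusters 5 and 10 it had 1.39 and 1.20. Mgst1 (chr6:138140316-138156755), the classical membrane-bound enzyme, had 6.12 in cluster 3 (5.85 to 6.39), 4.05 in cluster 8, 3.30 in cluster 9 and 0.334 in cluster 4. It had 2.15 in the neutrophil-like cluster 5. Mgst2, which can make leukotriene C4, lay between 1.32 in cluster 6 and 3.505 in cluster 0 over clusters 0 to 4 and 6 to 9, with 1.22 in cluster 11.

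Sulfotransferases reached 12.6 per 10000 in cluster 8 and 17.8 in cluster 9, with different members. Sult1a1 (chr7:126672865-126676432), which sulfates phenols, had 8.82 per 10000 in cluster 9 (8.29 to 9.37), against 2.59 in the next cluster, 3, and it was at 0.137 in cluster 8 and 0.0458 in cluster 4. Sult1b1 (chr5:87513339-87538195), which sulfates thyroid hormones and phenols, had 5.80 in cluster 8 (5.32 to 6.31), 4.30 in cluster 4 and 2.70 in cluster 9. Its neighbour Sult1d1, which in mice sulfates catecholamines, had 4.87 in cluster 8 and 4.15 in cluster 9, with overlapping intervals. Sult2b1, a cholesterol and pregnenolone sulfotransferase, had 1.80 in cluster 8, against 0.656 in cluster 3, and Sult1c2 had 0.0127 in cluster 8 and 1.55 in cluster 9. The sixth gene, Sult4a1, stayed at 0.0761 or less.

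Glucuronosyltransferases were low in all clusters. Their sum was 1.44 per 10000 in cluster 8 (1.21 to 1.71) and 1.93 in cluster 9 (1.69 to 2.19), the highest values. Ugt2b34 was the only one of the 7 above 1 per 10000, with 1.43 in cluster 8 and 1.46 in cluster 9, and it made up 99.1% and 75.7% of the sums there. Ugt2b5 had no UMI in cluster 8 and 0.329 in cluster 9, and Ugt2b35 had 0.0849 in cluster 9. Of the windows of Ugt2b5, 25.8% occurred in another gene, so its level is uncertain. The 3 Ugt1a genes stayed below 0.1, and Ugt1a1, the bilirubin-conjugating form, was at 0 in 9 clusters and at 0.0127 or less in the rest. Of the windows of Ugt1a1, 57.4% occurred in another gene, and the Ugt1a genes share their last exons, so their levels are uncertain.

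Set against each other, the absorptive colonocyte-like clusters 8 and 9 differed in both directions. Called by the same threshold, 8 members were higher in cluster 8 than in cluster 9 (1.42% of all genes) and 11 were lower (1.9%). The 8 were Sult1b1, Cyp3a13, Sult2b1, Cyp2d9, Cyp2d10, Cyp2d12, Cyp2d34 and Cyp4f16, with log2 differences from 1.08 for Sult1b1 to 4.05 for Cyp2d12. The 11 were Gstm1, Gstm2, Gstk1, Gsta1, Gsta4, Gsto1, Sult1a1, Sult1c2, Ces1d, Aldh1a1 and Cyp2c65, with differences from -1.11 for Gsto1 to -5.23 for Sult1a1. The 8 were thus 6 Cyp and 2 Sult genes, and 6 of the 11 were Gst genes. With ribosomal protein genes, mitochondrially encoded genes and Malat1 left out of the scale, the split was 6 higher and 13 lower, and all genes shifted by -0.19 in log2. Several values moved with this contrast, and their part in it was not tested. Ribosomal protein genes took 3.75% of UMIs in cluster 8 and 15.2% in cluster 9. Of the 6 measured genes of distal colon position, 2 exceeded the mean of the rest at least 2-fold in cluster 8 and 4 were as far below it in cluster 9, with Fxyd4 at 21.9 and 0.0162 per 10000 and Hoxb13 at 7.72 and 1.31.

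**Figure D5:**
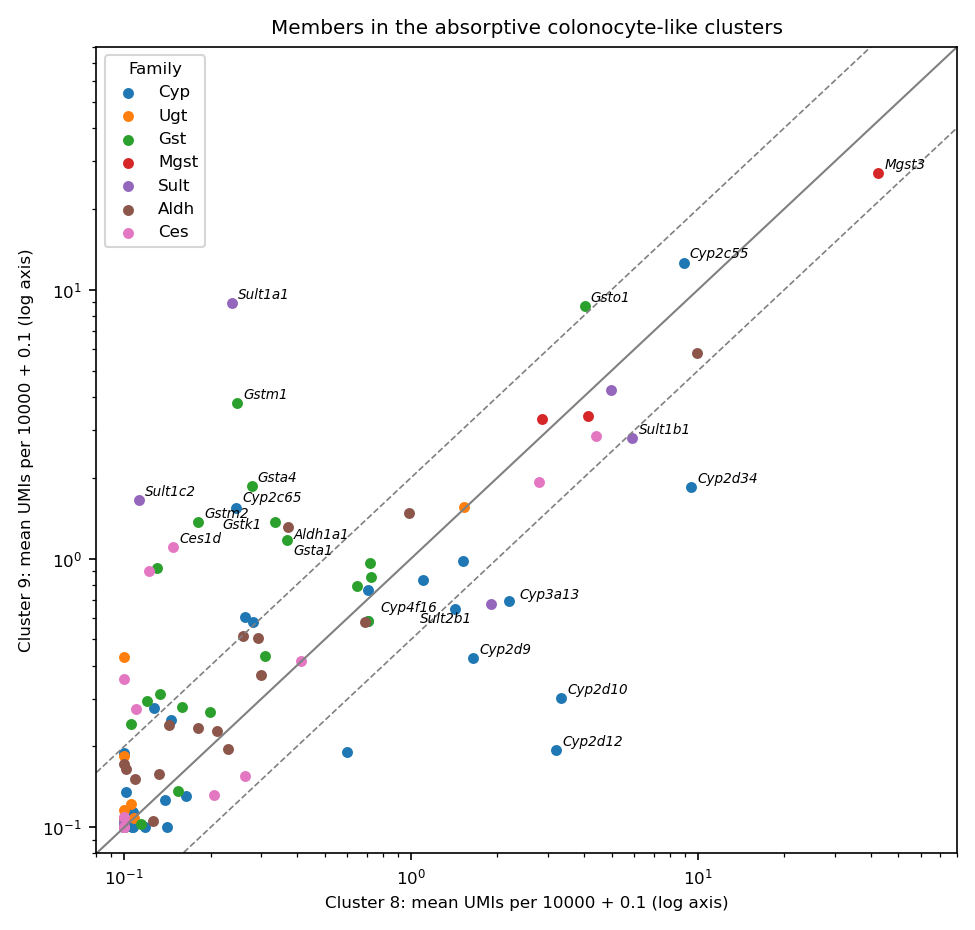
Each of the 99 members by its level in cluster 8 (horizontal) and cluster 9 (vertical), as mean UMIs per 10000 + 0.1 on log axes, coloured by family, with the diagonal and 2-fold lines; called genes, Cyp2c55 and Mgst3 are named. Cyp2d9, Cyp2d10, Cyp2d12, Cyp2d22 and Cyp2d34 lie below the lower line. Cyp2d26, Sult1a1, Sult1c2 and several Gst genes lie above the upper line.

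Against the proliferating-like cluster 7, the absorptive clusters had more of members from several families. In cluster 8, 16 members were higher than in cluster 7 (2.87% of all genes) and 5 were lower (3.87%). In cluster 9, 14 members were higher than in cluster 7 (1.28%) and 1, Gsta3, was lower (1.3%). Both sets of higher genes held Cyp2c55, Cyp2d34, Ces2a, Ces2e, Sult1b1, Sult1d1, Ugt2b34 and Mgst3. The 5 genes lower in cluster 8 than in cluster 7 were Gsta3, Gsta4, Gstm1, Gstm5 and Sult1a1. Over all genes, rescaling moved cluster 8 by -0.26 in log2 relative to cluster 7.

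Cluster 4, with the injury markers, had less of most absorptive members. In it 3 members were higher than in cluster 8 (0.939% of all genes) and 13 were lower (0.692%). The 3 were Aldh1a3, Gsta4 and Aldh1l1, and Aldh1a3 had the largest difference among them at 4.14 in log2. Among the 13 were Cyp2c55, at 1.40 per 10000 in cluster 4 and 8.81 in cluster 8, Mgst1, at 0.334 and 4.05, and Cyp2d12, at 0.0515 and 3.102. Xist, the X-inactivation RNA of female cells, was at 2.99 per 10000 in cluster 4 and had no UMI in cluster 8, while the Y-linked gene Eif2s3y was at 0.413 and 0.490 there. The columns do not separate animals or libraries, so an animal and a cluster cannot be told apart in this or any other contrast. The 6 sex-linked genes measured, X- and Y-linked together, summed to 2.68, 0.967 and 0.976 per 10000 for clusters 7, 8 and 9. Such a sum adds genes of both sexes, so it does not show the share of each, and like sums need not mean a like mix. The contrasts among clusters 7, 8 and 9 carry the same limit of unseparated columns, and the part of animals or libraries was not tested.

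The goblet-like cluster 0 had a lower sum of the members than cluster 7, at 33.6 against 49.4 per 10000. Even so, Mgst2, Gstm5 and Aldh1b1 were highest in cluster 0, at 3.505, 1.86 and 1.57 per 10000. For Mgst2 and Aldh1b1 the intervals overlapped those of cluster 9, the next highest. Against cluster 7, 1 member, Cyp2d34, was higher in cluster 0, at 1.36 and 0.122 per 10000 in clusters 0 and 7. That was 1.01% of the members, near the 1.06% of all genes. Lower were 5 members (1.47%): Gsta3, Gsta4, Gsto1, Mgst1 and Sult1a1. In the leukocyte and enteroendocrine-like clusters many members were 2-fold or more below the mean of the rest, with no minimum level asked for: 49 in cluster 5, where 19.4% of all genes were, 45 in cluster 10, where 13.2% were, and 39 in cluster 11, where 9.08% were. The medians of the members in these 3 clusters were -0.94, -0.87 and -0.40 in log2, against -0.26, -0.14 and -0.04 over all genes.

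Genes that serve these enzymes were counted from 8 lists, by a difference of 2-fold or more from the mean of the other clusters, with no minimum level asked for. By this count 3.7% of all genes were above and 9.41% below in cluster 8, 1.21% and 5.09% in cluster 9, 3.34% and 5.05% in cluster 7, and 3.26% and 7.29% in cluster 4. Of 12 efflux pumps, 3 were above in cluster 8 and 4 in cluster 9, and none was below in either. Abcb1a, the drug pump P-glycoprotein, had 5.65 per 10000 in cluster 8 and 2.63 in cluster 9, and Abcg2, another multidrug pump, 2.33 and 1.26. Abcc3 had 1.07 in cluster 8 and 1.04 in cluster 9, and Slc51b, of the bile acid exporter, 0.468 and 0.676. Slc51a and Slc51b, which this list holds, are also among the absorptive colonocyte markers that named clusters 8 and 9. Their part in these counts is therefore not independent of the naming. Of 13 cofactor genes, 2 were above in cluster 8 and 3 in cluster 9. Slc26a2, a sulfate transporter, had 15.8 in cluster 8, against 5.25 in cluster 3, and Ugdh, which makes UDP-glucuronic acid, had 3.70 in cluster 8 and 4.24 in cluster 9. Papss1, which makes the sulfate donor, led cluster 11 at 2.97, and Mat2a, which makes S-adenosylmethionine, was highest in cluster 8 at 2.07.

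Of 15 receptors and intestinal factors, 5 were above in cluster 8 and 2 in cluster 9, and none was below in either. Hnf4a, a nuclear receptor of intestinal and liver genes, had 3.66 per 10000 in cluster 8 and 2.32 in cluster 9, and Vdr, the vitamin D receptor, 3.08 and 1.54. Cdx2, an intestinal homeobox factor, had 0.681 in cluster 8 and 3.43 in cluster 9, where it led, with 0.853 in the next cluster, 7. Cdx1 was highest in cluster 7 at 4.33. The receptors of foreign compounds were low: Nr1i2 (PXR) stayed at 0.824 or less and Ahr at 0.877 or less.

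Of 8 genes of the AHR list, 1 was above and 5 were below in cluster 8, and 0 above and 2 below in cluster 9. Hsp90ab1, a chaperone of the receptor, had 25.7 per 10000 in cluster 11 and 2.23 in cluster 8, Ptges3, its co-chaperone, was highest in cluster 7 at 1.95, and Tiparp in cluster 5 at 1.70. The list also holds Arntl, a clock gene related to Arnt. Of 21 NRF2 genes, 1 was above and 7 were below in cluster 8, while 4 were above and 3 below in cluster 7. Gpx2, a glutathione peroxidase, led cluster 7 at 49.9 and was at 0.490 in cluster 8, Txn1 was highest in cluster 8 at 36.6, and Prdx1 in cluster 7 at 17.7. In the neutrophil-like cluster 5 led Slc7a11, a cystine importer, at 13.8, Gsr at 8.07, Nfe2l2 itself at 5.76 and Osgin1 at 3.77.

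Of 17 genes of glutathione supply, 0 were above and 5 below in cluster 8, and 2 above and 1 below in cluster 7. Beside Gpx2, Slc7a11 and Gsr, the highest was Gpx1 at 9.31 in cluster 10. Of 22 partners of the first stage, 2 were above and 2 below in cluster 8, and 5 above and 0 below in cluster 9. Akr1c19, an aldo-keto reductase, led cluster 9 at 3.92, Akr1c13 was highest there at 3.48, Cbr1 was highest in cluster 8 at 7.18, Adh1 was highest in cluster 11 at 12.7, and Cyb5r3 led cluster 11 at 3.26. Of 17 retinoid genes, 5 were above and 2 below in cluster 4, where Aldh1a3 was highest. Rbp2, which binds retinol, led cluster 8 at 3.09 and had 1.37 in cluster 4, Rdh16, a retinol dehydrogenase, had 1.84 in cluster 8 and 1.29 in cluster 4, and Dgat1 and Rdh12 led cluster 5 at 3.36 and 1.97.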

How the data were processed

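Single-cell RNA libraries of irradiated colon epithelium (1 group, 2 libraries) were used. The tools named for them are Cell Ranger 3.1.0 and Seurat 2.3, with the build mm10, per the submitters' processing notes. Not given in the sources used here are the annotation, the filters, how doublets were treated, the clustering and the chemistry. The table the authors deposited holds, per gene and cluster, the mean UMIs per 10000 over the cells on a linear scale, since each column sums to 10000. UMIs were not divided by transcript length, so levels are compared mainly between clusters. Where genes are summed, ranked or called low, their UMIs are taken as they are.

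A gene with 1 UMI in 1 cell gives an average whose inverse, times 10000, equals the cells of the cluster times the UMI total of that cell. Such products, called whole within a relative tolerance of 1e-12, gave the cells per cluster and the totals, accepted where at least 2 genes gave them. The cell number times the totals' harmonic mean then gave approximate UMI numbers and exact Poisson 95% intervals, with 3 UMIs as the limit for a value of 0. Totals were identified for 74.2% of cells, and the intervals assume that the other cells have like depths. Intervals cover counting error only. The steps were tested on simulated data. Free RNA in droplets gives UMIs in cells that do not express a gene, and averages hide how a level is spread over cells.

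Folds used a pseudocount of 0.1 per 10000, and thresholds of 2-fold and 1 per 10000. Genes were named by rule: the 3 highest members of each family, the 12 largest folds over the next cluster, Cyp2c55, the 4 members most like it, every other member at 1 or more, and of each other list the 4 highest genes and any that led a cluster. A gene that this rule names is not reported here. Other members, and the sex-linked and distal position genes, were named after their values were seen. The members and lists were chosen with earlier results of these data known. Positions are from GENCODE M21 (98 of 99 symbols matched, 96 of them protein coding) and promoters from RefSeq. Shared sequence was the share of the 90-base windows of a gene's transcripts found in another gene. Planned protein comparisons were not run. Python 3.11.15, numpy 2.4.6, pandas 2.3.3, scipy 1.17.1 and matplotlib 3.10.9 were used.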

Additional observations from a re-analysis of the deposited data

How the results depend on the processing

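No paired analysis was possible because the columns are clusters over pooled cells and no test was made. For the same reason, leaving out each library was not run. No ratio of a family sum or fold of a named member changed sign. The highest cluster was kept fixed, so a changed pseudocount or the removal of other clusters could not turn a sign. Only the rescaling, and for the sums leaving out the highest member, could have done so. Of 250 alternative values for the counts and family sums, 117 moved by over 1.5 times (counts) or beyond their counting interval (sums), and 133 did not. Of 187 alternative values for 32 named members, 16 moved beyond that interval and 171 did not. With a pseudocount of 0.01, all 31 counts and sums stayed within 1.5 times or within their intervals. In the counts below, "above" refers to the mean of all remaining clusters. The share of all genes changes with each setting and is not printed beside these counts. They show how the member counts moved, and not whether they exceed that share.

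With a pseudocount of 1, 5 members led a cluster. Counts above were 0 in clusters 0, 1 and 6, 2 in clusters 3 and 4, 1 in clusters 7 and 11, and 6 in cluster 9. Between clusters they were 3 higher and 6 lower in 8 than in 9, 3 lower in 8 than in 7, and 1 higher and 8 lower in 4 than in 8. The family sums, as log2 ratio of the highest cluster to the mean of the others, became 2.15 for Cyp, 0.81 for Ugt, 1.48 for Mgst, 1.72 for Sult, 0.66 for Aldh and 1.55 for Ces, against 2.28, 1.39, 1.53, 1.90, 0.72 and 1.91 with 0.1.

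At 4-fold, 2 members led a cluster. Counts above were 0 in clusters 0, 1, 2, 3 and 6, 1 in clusters 4 and 7, 9 in cluster 8 and 6 in cluster 9. Between clusters, 3 were higher in 8 than in 9, 4 lower in 4 than in 8 and 3 lower in 0 than in 7.

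At 3 or more per 10000, 4 members led. None was above in clusters 0, 1, 6, 7, 10 and 11, and cluster 4 had 2 above, cluster 8 had 9 and cluster 9 had 4. Between clusters, the higher and lower counts were 4 and 3 for 8 over 9, 9 and 1 for 8 over 7, 4 and 0 for 9 over 7, 0 and 7 for 4 over 8, and 0 and 1 for 0 over 7.

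With no minimum level, cluster 2 had 3 above, cluster 10 had 2 and cluster 11 had 9. Between clusters, 22 were lower in 8 than in 9, 25 higher and 15 lower in 8 than in 7, 26 higher and 3 lower in 9 than in 7, 5 higher in 4 than in 8, and 5 higher and 10 lower in 0 than in 7.

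Among the 24 members with a mean of at least 0.5 per 10000, 3 led. Clusters 7 and 11 had 1 above, cluster 8 had 10 and cluster 9 had 9. Between clusters, 3 were higher and 6 lower in 8 than in 9, 10 higher in 8 than in 7, 9 higher and 0 lower in 9 than in 7, and 7 lower in 4 than in 8.

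Rescaled without ribosomal protein genes, mitochondrially encoded genes and Malat1, 3 were above in cluster 2, and the sums were 2.10 for Cyp, 1.34 for Mgst, 1.73 for Ces and 1.01 for all members, against 1.22 for all members as deposited.

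Without the shallow clusters 5 and 6 the sums were 2.19 for Cyp, 0.77 for Gst (0.89 with them), 1.36 for Mgst, 1.75 for Sult, 0.66 for Aldh, 1.79 for Ces and 1.08 for all. Without the leukocyte clusters 5 and 10 they were 2.17, 1.18 for Ugt, 0.67 for Gst, 1.29 for Mgst, 1.65 for Sult, 0.53 for Aldh, 1.68 for Ces and 1.0 for all, and counts above were 0 in clusters 0 and 6 and 2 in cluster 3. Without the small clusters 10 and 11 they were 2.13 for Cyp, 1.16 for Ugt, 0.75 for Gst, 1.31 for Mgst, 1.68 for Sult, 0.54 for Aldh, 1.65 for Ces and 1.02 for all, and counts above were 1 in cluster 0, 2 in clusters 3 and 4 and 0 in cluster 6. Without its highest member, each ratio, kept at the cluster that was highest with it, was 2.22 for Cyp, 1.86 for Ugt, 0.84 for Mgst, 1.20 for Sult, 0.0087 for Aldh, 1.43 for Ces and 1.03 for all. The highest cluster itself then changed for 5 families and for all members: it was cluster 3 in place of 8 for Mgst, 7 in place of 9 for Gst, 8 in place of 9 for Sult, 4 in place of 3 for Aldh, and 9 in place of 8 for Ces and for all. The causes were not tested.

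Depth limits clusters 5, 6, 10 and 11 most, where a value of 0 allows between 0.0643 and 0.174 per 10000.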
